A study of Mus musculus with 28 samples.

Results

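The Zscan4 genes form a tandem array on mouse chromosome 7. They were taken here as the annotated genes of the mm10 build, in GENCODE M21, whose symbol starts with Zscan4. The prefix was carried by 9 genes, and 8 of them were protein-coding, of 21755 protein-coding genes on chromosomes 1 to 19 and X. The 6 lettered genes, Zscan4a to Zscan4f, were followed by name, and Zscan4-ps1, Zscan4-ps2 and Zscan4-ps3 beside them. Zscan4a was the 1 gene annotated as a pseudogene, so the protein-coding rule alone gave 5 of the lettered genes. RefSeq counted as protein-coding only Zscan4b, Zscan4c, Zscan4d and Zscan4f.

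The data were 5 lists of H3K9me2 domains in mouse embryonic stem cells (mESCs), made from ultra low input native ChIP-seq. Each of 4 lists belonged to a condition with 3 immunoprecipitated libraries and 3 inputs. These were MERVL-GFP negative mESCs and MERVL-GFP positive 2-cell-like cells (2CLCs), each collected by sorting once DMSO or dTAG-13 had been present for 72 h. All 4 conditions used a single clone of the EHMT2-dTAG-mcherry MERV-GFP line, a BL6/129 hybrid kept in FBS and LIF, in which the tagged methyltransferase EHMT2 is degraded when dTAG-13 is added. TTNBP, given to raise the yield of MERVL-GFP positive cells, was added in 2 of the replicates per the labels, which do not name them, whereas the methods of the study state it for these cultures without that limit. A further 4 libraries came from unsorted EHMT2-dTAG-mcherry mESCs of the same hybrid background after 24 h in DMSO. The fifth list has no condition in its name, so it was matched to no group, and its values are given beside the others. A domain list gives positions only. It holds no level of H3K9me2, no value per replicate and no depth, so a border has no error and no test between conditions was possible.

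ZSCAN4 proteins combine a SCAN domain with zinc fingers. The genes are switched on in the 2-cell mouse embryo at zygotic genome activation and, in mESC cultures, in the rare cells that pass through a 2-cell-like state. ZSCAN4 is known for telomere lengthening by recombination and for a burst of DNA demethylation in such cells. H3K9me2 marks repressed chromatin over broad domains and is laid down by EHMT2 with its partner EHMT1. No transcript level is held in the lists.

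The 9 genes spanned chr7:10794242-11614112, a stretch of 820 kb in which no other protein-coding gene was annotated. The stretch also held 41 other pseudogenes and 3 microRNA genes. Of the 9 genes, 4 lay on the plus strand and 5 on the minus strand. Neighbouring starts were 63.9 to 144.5 kb apart, with a median of 98.6 kb. Each gene was short, at 4.31 to 4.82 kb with up to 4 exons.

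To show how alike the copies were where transcription starts, 150 bases of each promoter were lined up on the TATA box. The window starts 120 bases before the box and ends before the annotated start of the gene, and every sequence is printed 5′ to 3′ on the strand of its gene in the GRCm38 reference. Capitals mark the 19 positions at which any of the 9 copies differed, and the box, tataaaag, stands at positions 121 to 128. The lettered genes are shown because they are the named members of the cluster.
Zscan4a (chr7:10799082-10799231, minus strand): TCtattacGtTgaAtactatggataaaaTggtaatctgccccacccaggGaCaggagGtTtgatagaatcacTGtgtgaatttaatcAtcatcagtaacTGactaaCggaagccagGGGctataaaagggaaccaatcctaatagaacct
Zscan4b (chr7:10905052-10905201, minus strand): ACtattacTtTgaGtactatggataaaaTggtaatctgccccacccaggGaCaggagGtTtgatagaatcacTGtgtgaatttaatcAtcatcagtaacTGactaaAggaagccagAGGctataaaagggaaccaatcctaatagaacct
Zscan4c (chr7:11005571-11005720, plus strand): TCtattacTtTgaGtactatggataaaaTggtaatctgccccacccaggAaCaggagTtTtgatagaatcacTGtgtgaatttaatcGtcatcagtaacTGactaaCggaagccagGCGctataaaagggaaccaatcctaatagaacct
Zscan4d (chr7:11166184-11166333, minus strand): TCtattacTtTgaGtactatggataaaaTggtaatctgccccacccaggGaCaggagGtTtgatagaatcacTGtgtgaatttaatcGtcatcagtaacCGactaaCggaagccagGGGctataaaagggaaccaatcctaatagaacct
Zscan4e (chr7:11310684-11310833, minus strand): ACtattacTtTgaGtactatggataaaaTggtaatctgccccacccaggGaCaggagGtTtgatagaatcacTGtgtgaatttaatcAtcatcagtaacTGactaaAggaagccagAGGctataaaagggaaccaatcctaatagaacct
Zscan4f (chr7:11397764-11397913, plus strand): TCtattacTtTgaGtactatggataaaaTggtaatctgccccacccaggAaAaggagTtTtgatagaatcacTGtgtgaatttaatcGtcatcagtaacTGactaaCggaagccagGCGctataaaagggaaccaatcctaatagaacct

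The windows were cut around the box, which each of the 9 genes had to hold. Its presence in all 9 is therefore not a result. The windows were of equal length and were compared base by base without gaps. The copies shared 131 of 150 positions, or 87.3%. This count includes the positions of the box, which were the same by construction. The box, TATAAAAG on the strand of the gene, was found in the 250 bases before the start in 1.06% of 32851 RefSeq promoters of GRCm38.p6. TATAAA on either strand, which the box contains, was found in 12.4% of them. These shares describe how common the motifs are and are no contrast for the Zscan4 genes. RefSeq promoters were given for 4 of the 9 genes but were not used for the windows. All 9 windows were read from the genome at the GENCODE starts, from which the distances below are counted. The box lay 31 bases before the annotated start in Zscan4b, Zscan4e and Zscan4f, 54 bases before it in 5 genes and 65 bases before it in Zscan4-ps1, so the annotated starts do not mark the same base in each copy.

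Zscan4b and Zscan4e had the same 150 bases. Zscan4c and Zscan4f differed at 1 position. The largest count was 13 differences, between Zscan4-ps1 and Zscan4-ps3, and the median of the 36 pairs was 6. The 4 genes on the plus strand differed from each other at 1 to 6 positions (median 3, 6 pairs). The 5 genes on the minus strand differed at 0 to 10 positions (median 5, 10 pairs). Pairs on opposite strands differed at 4 to 13 positions (median 7.5, 20 pairs). The window held 3 CpG dinucleotides in Zscan4c, Zscan4d and Zscan4f, 2 in Zscan4a and none in Zscan4b and Zscan4e.

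**Figure D1:**
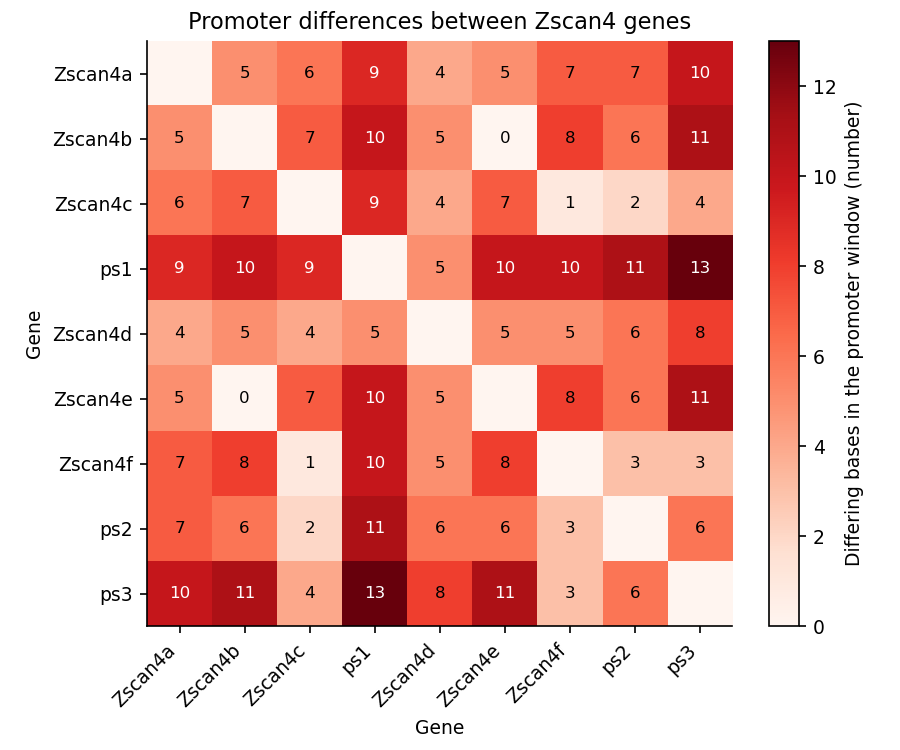
Number of differing bases in the 150-base promoter window for each pair of the 9 Zscan4 genes, in chromosome order on both axes (ps1 to ps3 are the Zscan4-ps genes). Zscan4b and Zscan4e differ at 0 positions and Zscan4-ps1 and Zscan4-ps3 at 13.

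The proteins were also close to each other. Translation of the annotated coding sequence gave 505 residues for Zscan4b and Zscan4e and 506 residues for the other 6 protein-coding genes, each with 4 C2H2 zinc finger matches. Identity between proteins ranged from 92.5% for Zscan4b and Zscan4d to 99.6% for Zscan4b and Zscan4e, with a median of 95.2% over 28 pairs. Zscan4c and Zscan4f were 99.4% identical, and Zscan4-ps2 was 99.2% identical to Zscan4f. Zscan4b and Zscan4e were therefore the closest pair in the promoter window and in the protein, although 3 annotated Zscan4 genes lie between them.

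All 9 Zscan4 genes lay inside an H3K9me2 domain in all 5 lists, from first to last base. A domain extends from bins with a high ratio of immunoprecipitated to input signal until the ratio falls below a lower cut-off. A gene inside it need not have a high ratio itself. The share of all protein-coding genes with the start in a domain was 22.3% with DMSO and 23.6% with dTAG in mESCs, 23.2% with DMSO and 26.5% with dTAG in 2CLCs, and 30.0% for the unnamed list. For all 4 sorted sets at once it was 15.1%, in all 5 sets 13.4%, and in the 4 sorted sets on chromosome 7 alone 25.6%. Because the copies are neighbours, the 9 genes count as 1 place in the genome and not as 9 separate observations.

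In each sorted set 1 domain held the whole cluster. In mESC DMSO it ran over chr7:7204653-12479645 and was 5275 kb wide. In mESC dTAG it ran over chr7:7189653-12779644 and was 5590 kb wide. In 2CLC DMSO it ran over chr7:7189653-12479645 and was 5290 kb wide, and in 2CLC dTAG over chr7:7184653-12924644, with a width of 5740 kb. It was the widest domain of chromosome 7 in all 4 sets. By width over chromosomes 1 to 19 and X it ranked 5 of 4323 with DMSO and 6 of 7312 with dTAG in mESCs, and 11 of 4246 with DMSO and 4 of 8820 with dTAG in 2CLCs. A domain at least as wide as this one held 0.602%, 0.639%, 1.86% and 0.657% of protein-coding gene starts in the same order. These shares include the domain of the cluster itself, which held 59 of the 131 starts and 64 of the 139 in mESCs. In 2CLCs it held 59 of 404 with DMSO and 70 of 143 with dTAG. A window as long as the cluster, moved along the genome in steps of 5 kb, lay wholly in a single domain at 13.3% of places with DMSO and 10.5% with dTAG in mESCs, at 15.3% and 8.53% in 2CLCs, and at 4.94% in all 4 sorted sets.

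**Figure D2:**
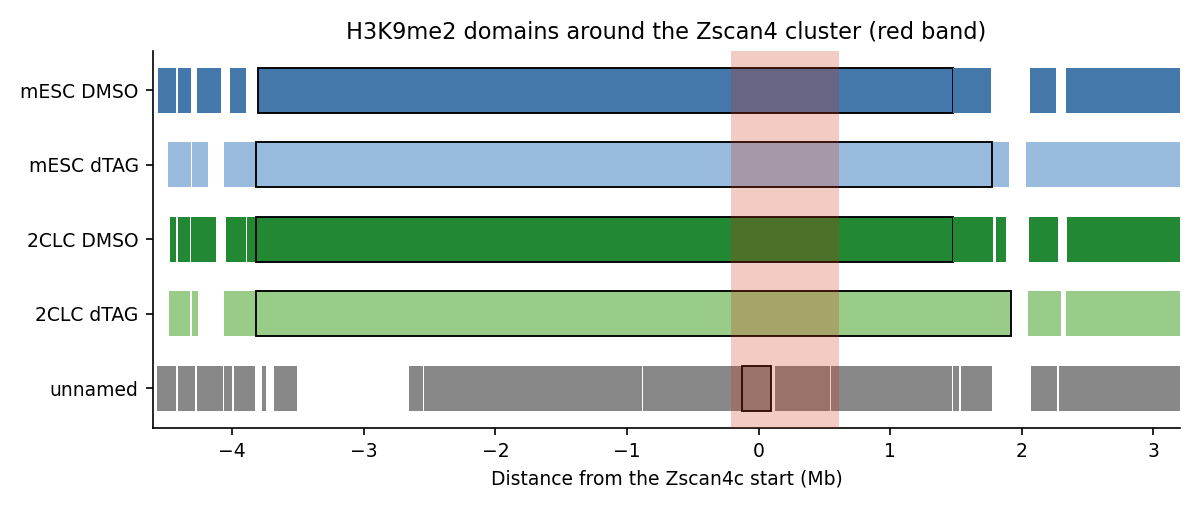
H3K9me2 domains of the 5 lists as bars along chromosome 7, by distance from the Zscan4c start in Mb. The red band is the Zscan4 cluster, and black outlines mark the domain that holds Zscan4c. In the 4 sorted sets the outlined domain covers the whole band, and in the unnamed list the band is cut by 3 gaps.

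The cluster lay deep in its domain and to the right of its middle. Its left end was 3590 to 3610 kb from the left border. Its right end, the last base of Zscan4-ps3, was 866 kb from the right border in both DMSO sets, 1166 kb in mESC dTAG and 1311 kb in 2CLC dTAG. In both DMSO sets the start of Zscan4-ps3 lay 870 kb from the nearest border and that of Zscan4a 1681 kb, with the other genes between them in chromosome order. Zscan4c and Zscan4d, which stand near the middle of the array, started 1474 and 1313 kb from the nearest border in both DMSO sets. In dTAG the corresponding values were 1774 and 1613 kb in mESCs, and 1919 and 1758 kb in 2CLCs. No Zscan4 gene was near a border in any sorted set, and every one started at least 500 kb from both ends of its domain. Of all protein-coding genes this held for 3.23% with DMSO and 3.52% with dTAG in mESCs, for 4.82% and 3.22% in 2CLCs, and for 1.77% in all 4 sorted sets.

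To compare EHMT2 depletion with DMSO, both borders were set side by side. The cluster remained within a single domain in dTAG in both cell states. The whole DMSO domain that held it also lay within a single dTAG domain in each cell state. The counts that follow are of whole DMSO domains and not of stretches as long as the cluster. For scale, 80 of the 319 mESC DMSO domains of at least 1 Mb (25.1%) were overlapped by exactly 1 mESC dTAG domain, with a median of 3 dTAG domains. In 2CLCs it was 44 of 306 (14.4%), with a median of 4. Among DMSO domains of at least 4 Mb it was 2 of 11 in mESCs (18.2%) and 3 of 20 in 2CLCs (15.0%). Each of these counts includes the domain of the cluster itself. Per the methods, the domain calls use percentiles of the ratio of immunoprecipitated to input signal. Whether these were set per condition is not given. A call also holds no level, so a domain in dTAG does not show that the amount of H3K9me2 was kept.

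The right border lay further out in dTAG. The distance was 300 kb in mESCs, which is 60 bins of 5 kb, and 445 kb or 89 bins in 2CLCs. The left border moved less, by 15 kb in mESCs and 5 kb in 2CLCs, again outwards in dTAG. In both DMSO sets the right border fell inside Zfp606, a zinc finger gene, 1.35 kb past its start, and was followed by a gap of 5 kb. Beyond that gap another domain began, 285 kb wide in mESC DMSO and 305 kb wide in 2CLC DMSO. Of the sequence added in mESC dTAG, 285 of 300 kb (95.0%) was thus already in a domain in mESC DMSO. In 2CLCs it was 380 of 445 kb (85.4%), spread over 2 DMSO domains. When domains at most 10 kb apart were joined, the outward distance at the right border in dTAG was 140 kb in mESCs and 135 kb in 2CLCs, and at the left border 265 and 250 kb. When domains at most 25 kb apart were joined, the 2CLC values fell to 40 kb on the right and 20 kb on the left, while those of mESCs stayed at 140 and 265 kb.

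**Figure D3:**
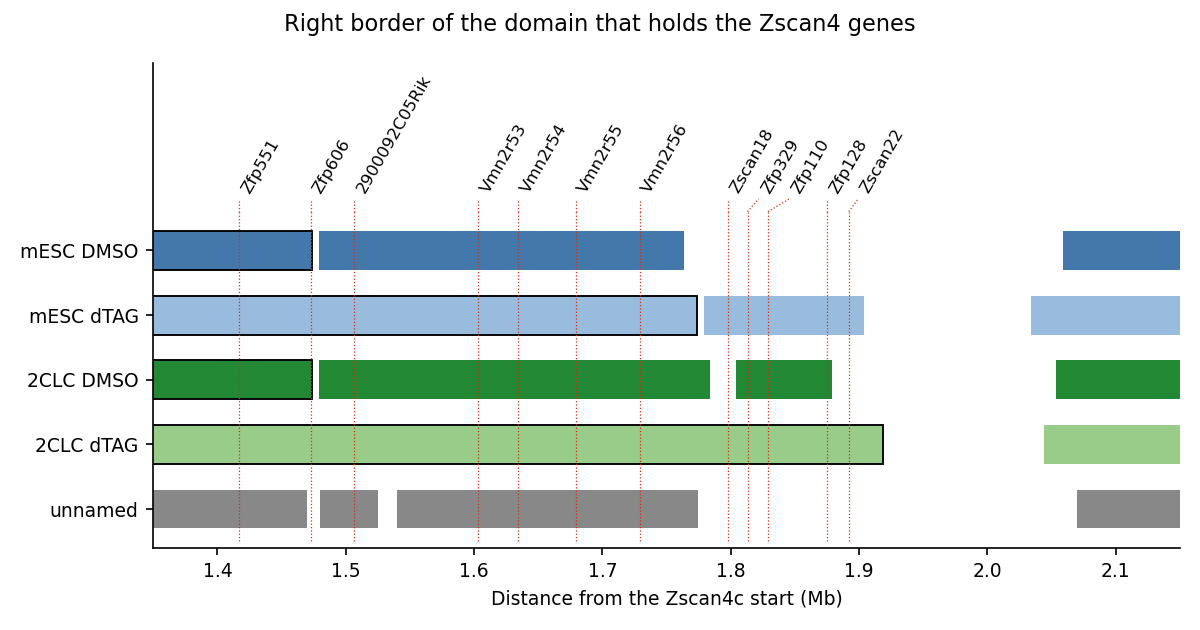
Domains of the 5 lists to the right of the cluster, by distance from the Zscan4c start in Mb. Black outlines mark the domain that holds the Zscan4 genes, and dotted lines mark the starts of the genes named above it. In both DMSO sets the outlined domain ends just past the Zfp606 start, in mESC dTAG 300 kb and in 2CLC dTAG 445 kb further out.

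The starts of 59 protein-coding genes lay in the domain of the cluster in both DMSO sets, 64 in mESC dTAG and 70 in 2CLC dTAG. The genes that were inside in some sets only all lay at the right border. The uncharacterised gene 2900092C05Rik and the vomeronasal receptor genes Vmn2r53, Vmn2r54, Vmn2r55 and Vmn2r56 were in the domain of the cluster in both dTAG sets and in the next domain in both DMSO sets. The zinc finger genes Zscan18, Zfp329, Zfp110, Zfp128 and Zscan22 were in the domain of the cluster in 2CLC dTAG alone. In mESC DMSO none of these 5 was in any domain. In mESC dTAG all 5 were in the next domain, and in 2CLC DMSO Zfp329, Zfp110 and Zfp128 were in a separate domain. The nearest start outside the border of 2CLC dTAG, at 2.77 kb, was that of Rnf225.

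To compare 2CLCs with mESCs, the same borders were read across cell states. In DMSO the right border was at the same base in both, and the left border lay 15 kb further out in 2CLCs. In dTAG the right border lay 145 kb further out in 2CLCs and the left border 5 kb. These distances depended on narrow gaps. With domains at most 10 kb apart joined, the borders of 2CLCs lay 20 kb (right) and 15 kb (left) further out in DMSO, and 15 and 0 kb in dTAG. With domains at most 25 kb apart joined, the DMSO distances were 115 and 245 kb, and those in dTAG were again 15 and 0 kb. The cluster was therefore inside a domain in sorted 2CLCs, the state in which Zscan4 genes are known to be expressed, as in MERVL-GFP negative mESCs. Bases in the domain in all 4 sorted sets came to 5275 kb, or 91.9% of those in the domain in any of them. The left border ranged over 20 kb, with the zinc finger gene Zfp772 as the first start inside and Zfp418 as the first outside in all 4 sets. The gap to the left was 95 kb with DMSO and 5 kb with dTAG in mESCs, and 15 kb with DMSO and 10 kb with dTAG in 2CLCs.

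In the unnamed list the cluster was split over 4 domains that covered 95.1% of it. Zscan4a was in a domain of 750 kb. Zscan4b, Zscan4c and Zscan4-ps1 shared one of 220 kb, and Zscan4d, Zscan4e, Zscan4f and Zscan4-ps2 one of 420 kb. Zscan4-ps3 was in a domain of 920 kb. The gaps were chr7:10875637-10880636 between Zscan4a and Zscan4b, chr7:11100636-11130635 between Zscan4-ps1 and Zscan4d, and chr7:11550636-11555635 between Zscan4-ps2 and Zscan4-ps3. They were 5, 30 and 5 kb wide and held none of the 9 genes. The starts of the Zscan4 genes lay 24.4 kb (Zscan4b) to 180 kb (Zscan4e) from the nearest border in this list. Over the 5275 kb shared by the sorted sets it held 8 domains that covered 81.2%, and its widest gap there, 855 kb at chr7:7495639-8350638, was far from the cluster.

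**Figure D4:**
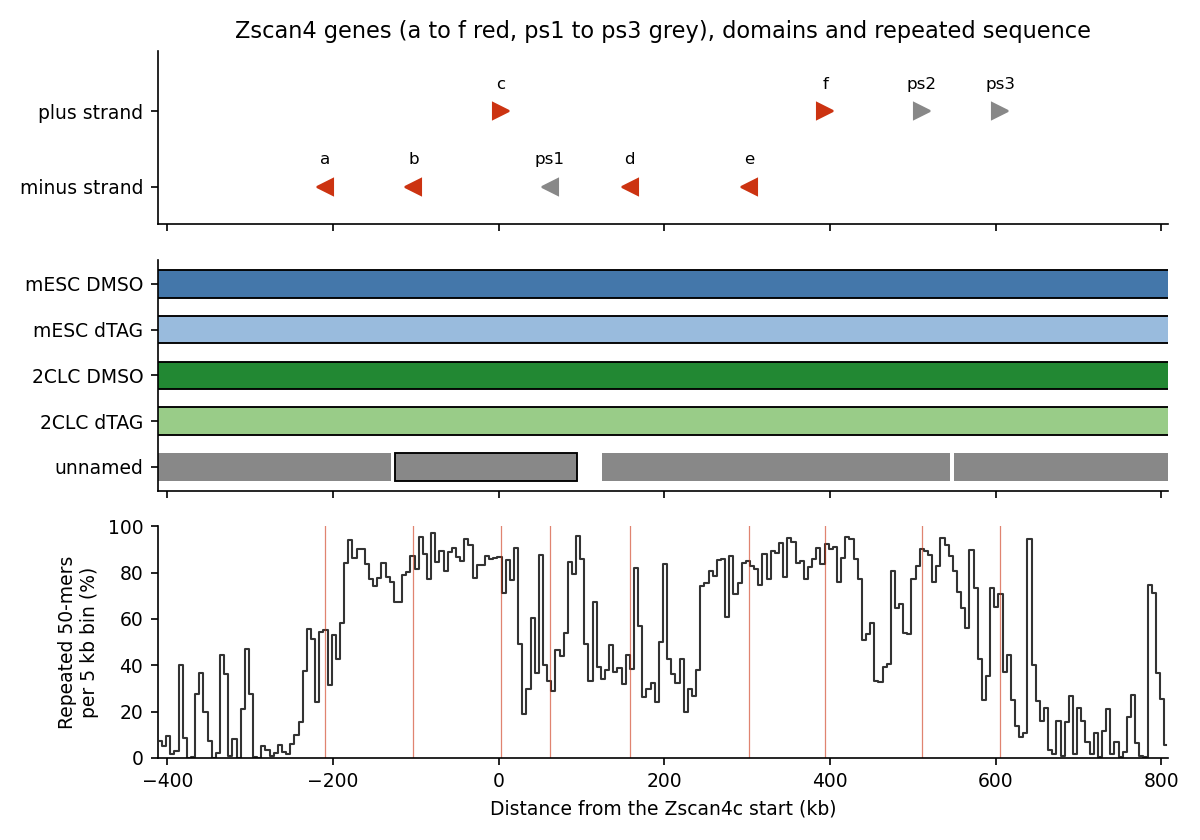
The Zscan4 genes by strand (top), the domains of the 5 lists (middle, outlined where they hold Zscan4c) and the share of 50-base words found again in the genome per 5 kb bin (bottom), by distance from the Zscan4c start in kb. The 4 sorted sets cover the whole stretch, the unnamed list leaves gaps of 5, 30 and 5 kb between genes, and the bins of the cluster range from 19.0% to 96.9% repeated.

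The cluster shared its domain with other gene families. Vomeronasal receptor genes, which encode pheromone receptors of the vomeronasal organ, made up most of the rest. There were 24 Vmn2r genes in both DMSO sets and 28 in both dTAG sets, and 19 Vmn1r genes in every sorted set. All 8 protein-coding Zscan4 genes of the genome were in this domain, which follows from their being a single array at 1 place. In mESC DMSO it held 24 of 122 Vmn2r genes (19.7%) and 19 of 209 Vmn1r genes (9.09%). Both families also have members on other chromosomes, so these shares are no contrast for the Zscan4 genes. Other zinc finger genes numbered 4 in mESC DMSO, mESC dTAG and 2CLC DMSO and 9 in 2CLC dTAG. Nearest to the cluster on the left were Vmn1r71 at 39.9 kb, Nlrp4b, a gene of the NLR family, at 64.1 kb and Vmn1r70 at 158 kb. On the right they were Vmn1r72 at 50.4 kb, Vmn1r73 at 116 kb and Vmn1r74 at 220 kb. All 6 neighbours started in a domain in all 5 lists. The 7 protein-coding Obox genes of chromosome 7, homeobox genes of the early embryo, lay in the next wide domain to the right. That domain began 865 kb beyond the border with DMSO and 495 kb with dTAG in mESCs, and 870 and 420 kb in 2CLCs.

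Other genes of the 2-cell programme were placed in the same lists. For scale, the share of all protein-coding genes starting in a domain was 22.3% with DMSO and 23.6% with dTAG in mESCs. In 2CLCs it was 23.2% and 26.5%, and in all 4 sorted sets at once 15.1%. The gene groups below are small, and whether a count differed from these shares was not tested. Of 7 listed activators 6 were annotated, Obox4 not. Of these 6, which included the transcription factor gene Duxf3 and the DNA-binding protein genes Dppa2 and Dppa4, 0 started in a domain with DMSO and 3 with dTAG in mESCs, and 2 with DMSO and 2 with dTAG in 2CLCs. Duxf3 was in a domain in 2CLC DMSO only, Dppa2 in mESC dTAG only, Dppa4 in 3 sorted sets and not in mESC DMSO, and Nelfa, a pausing factor gene, in both dTAG sets. Tbx3 and Dppa3 were in a domain in none of the 4. Of 12 listed genes for repressors, Ehmt1 and Ehmt2 among them, 2 were in a domain in mESC dTAG, Setdb1, an H3K9 methyltransferase gene, and Zmym2. The list also holds Zfp462, which the study ties to the repression of germ layer genes and not to 2-cell genes. None of the 12 was in a domain in the other 3 sorted sets. The 6 genes for factors tied to ZSCAN4 in telomere and DNA methylation biology, such as Rif1, Tert and Uhrf1, were outside domains in all 4. Of 13 other genes of the 2-cell state, 12 were in a domain in all 4 sorted sets, as the Zscan4 genes were. These 12 were Zfp352, Tcstv3, the 5 Usp17l genes Usp17la to Usp17le and the 5 Tdpoz genes Tdpoz1 to Tdpoz5. Tcstv1 was in a domain in 2CLC dTAG alone. Usp17l and Tdpoz genes are themselves clustered copies, so these too are few separate places.

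How far reads can be told apart between the copies was read from the reference. Of all 50-base words of the cluster, taken at every base, 68.8% were found at least once more on chromosomes 1 to 19, X and Y on either strand. The share was 62.8% in the rest of the domain common to the sorted sets and 14.3% on chromosome 7 outside the domain. For 100-base words, as long as each mate of the paired reads of the study, it was 47.8%, 51.6% and 8.85%. Reads were sequenced in pairs, so these are shares of words and not of ambiguous reads. Within the cluster, 60.9% of the 50-base words had another copy inside the cluster itself. Between the right border of the DMSO sets and that of 2CLC dTAG, 24.0% of 50-base words were repeated.

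The genes differed in how much unique sequence they held. Of the 50-base words in the gene body, 3.93% were unique in the genome in Zscan4f, 10.1% in Zscan4c, 16.0% in Zscan4b and 16.5% in Zscan4e. The share was higher in Zscan4a at 44.1% and in Zscan4d at 50.3%. Among the Zscan4-ps genes it was 67.5% in Zscan4-ps1, 9.02% in Zscan4-ps2 and 30.1% in Zscan4-ps3. With 100-base words the share rose to 9.36% in Zscan4f and 79.1% in Zscan4d. The sequence between the genes was 31.4% unique at 50 bases. Per the methods, the aligner wrote 1 place per multi-mapping read, with the order of its matches random. Such a read can therefore come from any copy that it matches equally well. How much of the signal over any 1 copy came from other copies was not tested. The 3 gaps of the unnamed list inside the cluster were 61.4%, 59.7% and 86.0% repeated, against 68.8% for the cluster, and its 855 kb gap was 89.8% repeated.

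**Figure D5:**
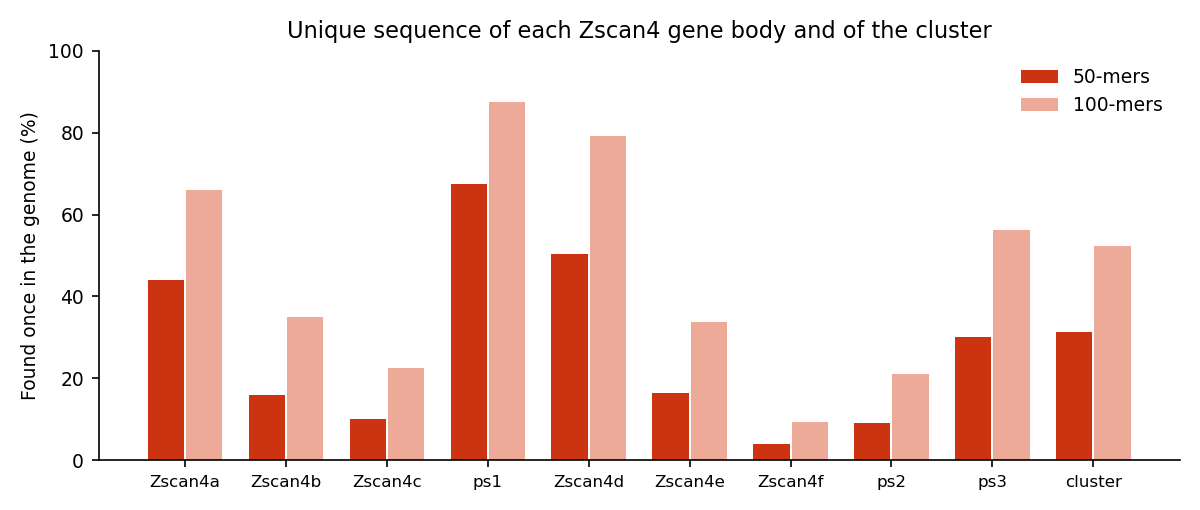
Share of 50-base and 100-base words found once in the genome, in percent, for the body of each of the 9 Zscan4 genes and for the whole cluster. Zscan4f is lowest (3.93% and 9.36%) and Zscan4-ps1 highest (67.5% and 87.4%).

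The likeness of the copies also bears on the quantitative PCR oligos listed for Zscan4d. They are shown because one matched a single copy and the other every copy. Capitals mark bases at which at least 1 of the 9 copies differed.
Zscan4d-FW: tTGaagttcacTggaCaaagAGGtg
Zscan4d-RV: tgtgaagccattgtggtgac

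The forward oligo, of 25 bases, had 1 exact match in the genome, at chr7:11166098-11166122 in Zscan4d. Its best match in the other 8 genes had 1 mismatch in 4 of them (Zscan4b, Zscan4e, Zscan4f and Zscan4-ps2), 2 mismatches in 3 and 4 mismatches in Zscan4c. The reverse oligo, of 20 bases, had 10 exact matches, all in the cluster, of which 9 were in the Zscan4 genes and 1 in the pseudogene Gm45551. Of the pair, only the forward oligo held bases that differed between the Zscan4 copies, at 7 positions.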

How the data were processed

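H3K9me2 ChIP-seq domains were taken from 5 deposited BED lists on mm10. Per the methods, the authors aligned reads with STAR with multi-mapping reads assigned, took log2 ratios of immunoprecipitated to input coverage in 10 kb windows on 5 kb steps and ignored places without signal. A domain was begun above the 80th percentile and extended to the first bin below a lower percentile. Whether replicates were pooled and percentiles set per condition is not given in the sources used here. The submitters' processing notes name STAR 2.7.10, Picard 2.26.0, SAMtools 1.14, bedtools 2.30.0, deepTools 3.5.1 and R 4.1.2. The deposited start and end columns are positions, and the deposited score column is 0 throughout and was not used. The depth of the libraries is unknown here.

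Starts were made 1-based. Genes came from GENCODE M21 and sequence from GRCm38.p6, the C57BL/6J reference. The cells also carry 129 chromosomes, whose own copies are not in it. A gene counted as inside when its start base lay in a domain. Words of 50 and 100 bases were counted with hashes (numba 0.67.0). All words of the domain and every 10th word of chromosome 7 elsewhere were used. Sequences were aligned globally with Biopython 1.88, and identity was taken over all alignment columns. The scripts ran in Python 3.11.15 and were tested on simulated data. Genes named in the text were all Zscan4 genes, the 3 nearest protein-coding genes on each side, the nearest starts at each border, the genes inside in some sets only, families with at least 5 starts in the domain and a list of 2-cell genes. The Obox genes and Gm45551 were named after their places were seen. Zscan4 genes and lists were chosen with earlier results of these data known. A result at the right border is not reported here. No test was made, since each condition has 1 list, which holds no value per replicate.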

Additional observations from a re-analysis of the deposited data

How the results depend on the processing

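All 9 Zscan4 genes were inside a domain in each of the 5 lists when the whole gene body or 5 kb on each side of the start had to be inside, when only domains of at least 50 kb were kept and when each domain was shortened by 1 bin at both ends. Borders and widths changed when nearby domains were joined. Joining those at most 10 kb apart gave a right border at 12769644 and a width of 5565 kb in mESC DMSO, borders at 6939653 and 12909644 and a width of 5970 kb in mESC dTAG, a right border at 12789644 and a width of 5600 kb in 2CLC DMSO, and a left border at 6939653 and a width of 5985 kb in 2CLC dTAG. Joining those at most 25 or 50 kb apart gave the same values, except in 2CLC DMSO, where the borders were 6959653 and 12884644 and the width 5925 kb. Counted over all annotated genes, the domain held 224 starts in both DMSO sets, 235 in mESC dTAG and 247 in 2CLC dTAG. The share of repeated words in the cluster was 47.8% with 100-base words, 66.7% with matches on chromosome 7 only and 64.4% on the same strand only. The median promoter identity over 36 pairs, 86.1% from 250 bases before to 50 after the annotated starts, was 95.8% without gap columns and 84.1% for the 250 bases alone, since the annotated starts sit at different distances from the box. The share of all protein-coding genes inside domains moved with the rule for genes in all 4 sorted sets, for example in mESC DMSO to 35.4% over all annotated genes, 21.4% without X and 18.4% for whole gene bodies. No paired analysis was possible because each condition has 1 list with no value per replicate, and for the same reason no replicate could be left out.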
